A study of Mus musculus with 88 samples.

Results

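The Hox genes encode homeodomain transcription factors that sit in 4 genomic clusters, and 38 of these genes were followed here by name through every table of the series. They were 38 of 53697 genes in the mesoderm table, 38 of 54393 in the endoderm table and 38 of 26007 in the bulk embryoid body table. Among single cells 34 of the 38 had an entry among 15830 genes, and Hoxa6, Hoxc12, Hoxd11 and Hoxd12 had none there. Members were chosen by their symbols, with earlier results of these data known. They were then grouped by cluster (10 in cluster a, 10 in b, 9 in c and 9 in d) and by paralogue number, which follows the order of the genes within a cluster. Paralogues 1 to 3 lie at the 3′ end (7 members), paralogues 4 to 8 in the middle (15 members) and paralogues 9 to 13 at the 5′ end (16 members).

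The study asked how loss of subunits of Polycomb repressive complex 2 (PRC2), which methylates lysine on the tail of histone H3, affects differentiation of mouse embryonic stem cells. MTF2 belongs to the form of the complex called PRC2.1, JARID2 to PRC2.2, and EED to the core that both share. In the directed series, cells labelled as strain E14, either wild type or null for Mtf2 or Jarid2, were sampled undifferentiated (UD) and after 5, 24 and 48 h on the way to mesoderm or to endoderm, with 2 libraries for each genotype, series and time and 48 libraries in all. Per the study's methods the duplicates of the bulk RNA and of the directed differentiation were technical, so an SD or p of the directed series below measures the spread between such duplicates. Per the study's methods the mesoderm cells received Activin A, BMP4, a GSK3 inhibitor and FGF2 and then BMP4 with a TGF-beta receptor inhibitor, and the endoderm cells received Activin A, the GSK3 inhibitor and FGF2 and then Activin A with a BMP receptor inhibitor. Embryoid bodies, aggregates that differentiate without added lineage factors once LIF is removed, were sequenced in bulk on days 0, 2, 4 and 7 from 6 lines: the labelled nulls of Mtf2, Jarid2 and Eed, and the wild type lines Pcl1-3 wt, JM8 and J1 that the methods match to them in that order. The day 0 columns of these lines are headed mono and those of later days eb. Single cells of embryoid bodies were taken from wild type cells and from null lines of Eed, Jarid2 and Mtf2, labelled as strain E14, on days 0, 4, 7 and 10, with 1 library for each genotype and day. All cells were kept in serum with LIF before differentiation. Each genotype is 1 line, and since the methods give wild type lines of other origin as the match of each null line, genotype and origin of the line cannot be told apart in the directed and single-cell comparisons against E14.

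As background, Hox genes give cells along the head to tail axis their regional identity. In the embryo they are switched on in order, from the 3′ paralogues, used in the hindbrain and anterior trunk, to the 5′ paralogues, used in the posterior trunk, the limb and the genital region. In undifferentiated stem cells the clusters are known as long domains of PRC2 and its histone mark, and retinoic acid, WNT signalling and the CDX factors are known to open them.

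Cluster a lies on the minus strand of chromosome 6 and its members span 52162417 to 52260880 in GRCm38 (98.5 kb). Cluster b spans 96194316 to 96368256 on chromosome 11 (173.9 kb), cluster c spans 102921103 to 103036852 on chromosome 15 (115.8 kb) and cluster d spans 74668310 to 74765142 on chromosome 2 (96.8 kb). The exons of 23 members overlapped no other annotated gene, 9 members shared exon sequence with a gene on the same strand and 9 with a gene on the other strand. Reads of Hoxc5 and Hoxc10 and of Hoxd3 and Hoxd4 therefore cannot be fully told apart. The same holds for Hoxa2, Hoxa3, Hoxa9, Hoxd10 and Hoxd11 against genes on the same strand that are not members. Hoxa3, Hoxa4, Hoxa7, Hoxa11, Hoxb2, Hoxb3, Hoxb5, Hoxd3 and Hoxd4 may also share reads with genes on the other strand. Whether the counts kept the strand was not tested. RefSeq promoter windows (250 bases before to 50 after the start site) were found for 22 of the 38 members. These 22 windows held a median of 8.5 GCG or CGC trinucleotides, the strings for which MTF2 and the other Polycomb-like proteins are known, against a median of 4 over 32851 windows of the same length from all genes. The median was 12 in the 9 windows of cluster a, 10 in the 9 of cluster d, 7 in the 3 of cluster b and 4 in the 1 window of cluster c.

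The 250 bases before the start site are shown for 3 members that the results below turn on, with GCG and CGC in capitals (overlapping matches run together) and the strand of the gene. Hoxd13 (chr2:74667975-74668224, plus strand, GRCm38.p6) and Hoxa10 (chr6:52240855-52241104, minus strand) were called higher in bulk embryoid bodies of the lines labelled Eed null and Mtf2 null. In a cell cluster of the single cells both were lower in Mtf2 null than in wild type cells, as given below. Hoxb1 (chr11:96365508-96365757, plus strand) was highest on day 4 in embryoid bodies of J1 and of the line labelled Jarid2 null. The sequences are those of RefSeq.
Hoxd13: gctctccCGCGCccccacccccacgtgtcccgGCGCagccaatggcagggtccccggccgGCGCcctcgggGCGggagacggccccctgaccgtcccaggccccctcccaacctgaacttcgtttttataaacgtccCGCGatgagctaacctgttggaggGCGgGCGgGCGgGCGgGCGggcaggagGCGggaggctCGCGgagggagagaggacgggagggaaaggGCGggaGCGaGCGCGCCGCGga
Hoxa10: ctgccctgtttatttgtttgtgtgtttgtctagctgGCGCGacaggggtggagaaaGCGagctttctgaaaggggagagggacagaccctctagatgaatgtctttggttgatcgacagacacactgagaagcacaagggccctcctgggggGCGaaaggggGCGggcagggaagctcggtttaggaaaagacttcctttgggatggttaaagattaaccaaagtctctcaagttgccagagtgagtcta
Hoxb1: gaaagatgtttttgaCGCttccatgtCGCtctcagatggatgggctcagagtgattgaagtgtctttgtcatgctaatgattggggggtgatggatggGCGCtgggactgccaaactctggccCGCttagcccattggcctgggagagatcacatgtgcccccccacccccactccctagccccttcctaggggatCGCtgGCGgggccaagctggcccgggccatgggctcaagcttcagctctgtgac
The stretch before Hoxd13 held 26 of these trinucleotides, that before Hoxa10 held 6 and that before Hoxb1 held 7. The string TTTATG, which CDX factors are known to bind, was present on either strand in 5 of the 22 windows (22.727%) against 11.85% of all windows. The PBX and HOX string TGATNNAT was present in 3 of 22 windows (13.636%) against 8.846% of all windows, and the TATA string TATAAA in 3 of 22 windows (13.636%) against 13.616%. The direct repeat known as DR5, bound by retinoic acid receptors, was found in 0 of the 22 windows and in 0.009% of all windows.

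The directed libraries held 9111880 to 16898264 counts each, the embryoid body columns 3005707 to 22944105 reads, and the single-cell libraries a median of 4997 to 10603 transcript molecules (unique molecular identifiers, UMIs) a cell over 4949 cells. All 384 well barcodes occurred in more than 1 single-cell library. Mtf2 was low in the Mtf2 null mesoderm cells (31.9 to 37.8 against 244 to 437 CPM in wild type, where CPM stands for counts scaled to a library total of 1000000, or UMIs so scaled in single cells), and in single cells each targeted gene was lower in its null line at every day, for example Eed at 11.5 against 478 CPM on day 0. Jarid2 differed less in single cells. In Jarid2 null cells it was at 185 CPM against 290 in wild type on day 7, when Mtf2 null cells had 184, and at 132 against 215 on day 10. In the directed series Jarid2 was not lower at every time (317 against 418 CPM in UD mesoderm libraries, but 423 against 397 at 48 h). In the embryoid bodies none of the 3 targeted genes was called lower in its labelled null line: Mtf2 was below Pcl1-3 wt on every day (324 against 413 CPM on day 0, adjusted p = 0.0766 by limma), while Eed stood at 109 CPM in the line labelled Eed null and 103 in J1 on day 0, and Jarid2 at 603 against 507. These cells are therefore called labelled nulls below. On day 0 Mtf2 was lowest in the library labelled Jarid2 null (129 CPM against 304 in JM8), below the library labelled Mtf2 null. Summed germ line markers went from 61.6 on day 0 to 347 CPM on day 2 under the label Mtf2 null and from 249 to 41.4 under the label Jarid2 null, and summed trophoblast markers from 77.3 to 325 and from 467 to 52.5 CPM. The day 0 libraries of these 2 labels thus stood apart from their later days in germ line markers. Trophoblast markers also fell from day 0 to day 2 in the labelled Eed null (902 to 156 CPM), J1 (208 to 63.8), JM8 (190 to 109) and Pcl1-3 wt (91.9 to 78.3). Day 0 columns are headed mono and later ones eb, so day and form of culture cannot be told apart there. Counts of calls are also given without day 0.

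In the directed series the Hox genes were close to silent at every time and in every genotype. Levels are given in CPM, on library sizes scaled by edgeR's TMM factors. Of the 38 members, 25 stayed below 1 CPM in all 48 libraries, 13 reached 1 CPM in at least 1 library and 2, Hoxc13 (mean 3.42 CPM) and Hoxb9 (mean 1.32 CPM), had a mean of at least 1 CPM. The lowest was Hoxd3 with a mean of 0.006 CPM. In cluster a the means were 0.038 for Hoxa2, 0.194 for Hoxa3, 0.121 for Hoxa4, 0.186 for Hoxa5, 0.041 for Hoxa6, 0.799 for Hoxa7, 0.068 for Hoxa9, 0.334 for Hoxa10, 0.186 for Hoxa11 and 0.127 CPM for Hoxa13. In cluster b they were 0.149 for Hoxb1, 0.017 for Hoxb2, 0.087 for Hoxb3, 0.327 for Hoxb4, 0.013 for Hoxb5, 0.016 for Hoxb6, 0.111 for Hoxb7, 0.048 for Hoxb8 and 0.173 CPM for Hoxb13. The remaining members of cluster c lay between 0.062 CPM for Hoxc5 and 0.258 CPM for Hoxc4 (Hoxc6 0.111, Hoxc8 0.069, Hoxc9 0.244, Hoxc10 0.242, Hoxc11 0.091 and Hoxc12 0.256 CPM). In cluster d the means were 0.125 for Hoxd1, 0.116 for Hoxd4, 0.275 for Hoxd8, 0.356 for Hoxd9, 0.044 for Hoxd10, 0.031 for Hoxd11, 0.014 for Hoxd12 and 0.817 CPM for Hoxd13. Hoxc13 and Hoxd13 had a count in every library, and the other 36 members had a 0 in at least 1. Per kilobase of exon, Hoxc13 (1.39 CPM), Hoxb9 (0.512), Hoxd13 (0.329), Hoxa7 (0.278) and Hoxc12 (0.248) stood highest, and 4 of these 5 belong to paralogues 9 to 13.

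A filter on low counts left 2 members in the test of the UD cells (Hoxb9 and Hoxc13), 9 in the mesoderm series (Hoxa7, Hoxb4, Hoxb9, Hoxc4, Hoxc10, Hoxc12, Hoxc13, Hoxd8 and Hoxd13) and 9 in the endoderm series (Hoxa7, Hoxa10, Hoxa11, Hoxb4, Hoxb9, Hoxc13, Hoxd8, Hoxd9 and Hoxd13). The other 26 members were tested in neither series, so that nothing is said of their change. Of those tested in endoderm, Hoxa10, Hoxa11, Hoxd8 and Hoxd9 passed the filter only through the Mtf2 null libraries of 48 h, and Hoxb4 not without them. In mesoderm Hoxc4 and Hoxc12 passed only through the labelled Jarid2 null libraries of 24 h, Hoxc10 and Hoxd8 not without them and Hoxb4 only through the Mtf2 null libraries of 48 h. In the edgeR quasi-likelihood test a gene was called if its adjusted p was below 0.001 and its log2 fold change above 1 in size. Counts of members with an unadjusted p under 0.05 carry no weight. Such p were common over all genes, from 1465 of 19261 to 9884 of 16655 tested in a comparison. With 2 libraries a group, a lack of overlap is a description and not a test. Bulk levels do not tell fewer expressing cells from less RNA per cell.

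Wild type cells raised Hoxc13, a 5′ gene known from hair and nail formation, for a time in both directed series. In the mesoderm series its 2 wild type libraries held 1.48 and 1.19 CPM undifferentiated, 1.99 and 2.51 at 5 h, 9.67 and 9.34 at 24 h and 3.14 and 5.3 at 48 h. In the endoderm series they held 0.947 and 1.78, then 1.39 and 1.09, then 7.34 and 6.13 and then 1.91 and 2.07 CPM. The 24 h libraries were above those of every other time in both series, and the groups at 24 h and UD did not overlap. The rise from UD to 24 h was 2.83 ± 0.30 (log2 fold change ± SE, adjusted p = 4.94e-07) in the mesoderm series, where 1 of the 9 members tested and 6.96% of all genes tested were called. In the endoderm series it was 2.29 ± 0.36 (adjusted p = 5.37e-05), with 1 of 9 members and 5.31% of all genes called; the adjusted p was 0.00102 without wild type 24 h replicate 1 and 0.00218 without UD replicate 1. At 48 h Hoxc13 was still called above UD in the mesoderm series (1.65 ± 0.31, adjusted p = 3.00e-04; 1 of 9 members and 8.64% of all genes). That call was lost without wild type 48 h replicate 2 (adjusted p = 0.00926), UD replicate 1 (0.00195) or UD replicate 2 (0.00963). In the wild type endoderm series at 48 h edgeR called 0 of 9 members (8.15% of all genes) and 0 had an unadjusted p under 0.05; DESeq2 also called 0.

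Hoxb9, a gene of the posterior trunk and rib region, had 0.985 and 0.596 CPM in the UD wild type mesoderm libraries, 0.452 and 0.104 at 5 h, 3.25 and 2.33 at 24 h and 2.35 and 2.36 CPM at 48 h. The 24 h and 48 h libraries lay above the UD libraries, and the log2 difference at 24 h was 1.82 ± 0.44 (adjusted p = 0.00279), which missed the threshold. Summed over the 38 members, wild type mesoderm cells went from 5.07 ± 0.78 CPM (SD, n = 2) undifferentiated to 20.47 ± 1.08 at 24 h and 11.2 ± 3.5 at 48 h. Wild type endoderm cells went from 5.75 ± 0.49 to 13.3 ± 1.4 and back to 6.09 ± 0.21 CPM. Markers of the primitive streak moved with the sum in the mesoderm series (4.71 CPM summed in UD cells, 72.5 at 24 h and 11.9 at 48 h); their part in the result was not tested. The summed definitive endoderm markers were not higher at 48 h in wild type cells of the endoderm series (7.63 CPM in UD cells and 5.36 at 48 h), so the label endoderm is that of the protocol.

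**Figure D1:**
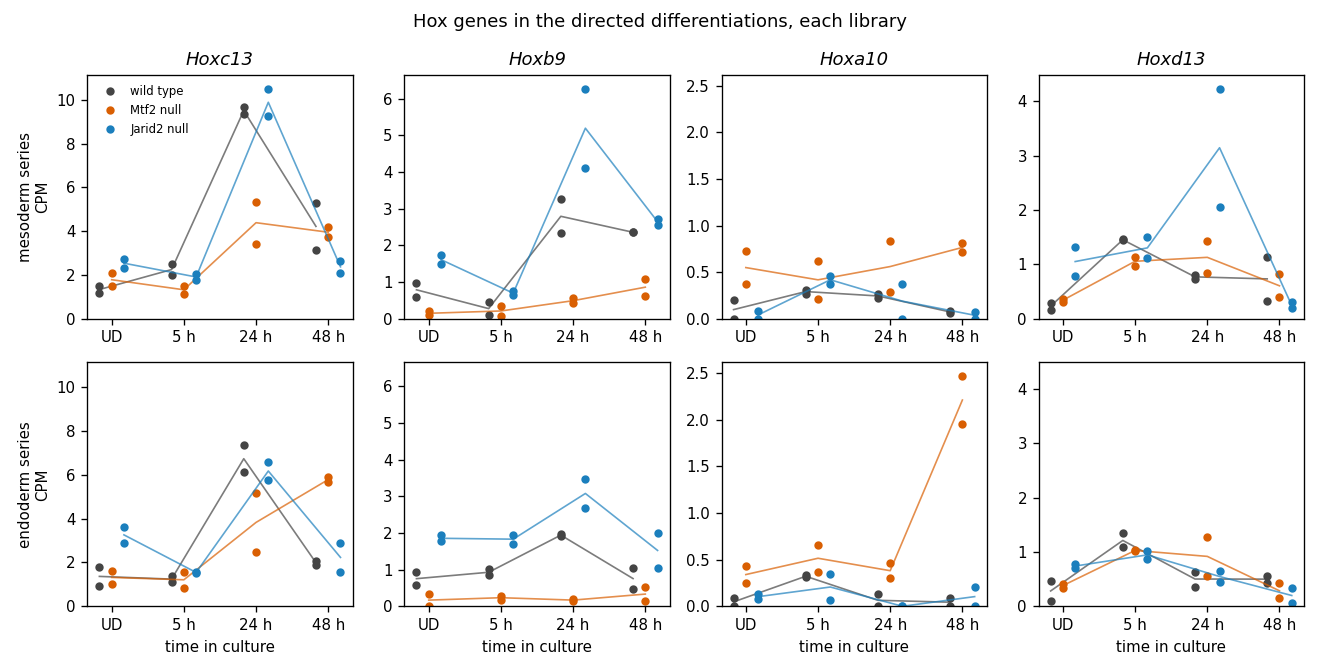
CPM of Hoxc13, Hoxb9, Hoxa10 and Hoxd13 (vertical axes, 1 scale for each gene) over the sampling times (horizontal axes) in the mesoderm series (top) and the endoderm series (bottom), with 1 point per library and lines through the mean of the 2 libraries of each genotype. Hoxc13 in wild type cells was highest at 24 h, at 9.34 to 9.67 CPM in mesoderm, and Hoxa10 was highest in Mtf2 null endoderm cells at 48 h, at 1.96 to 2.47 CPM.

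Hoxb9 was lower in Mtf2 null than in wild type cells at 24 h in both series. In the mesoderm series the Mtf2 null libraries held 0.57 and 0.418 CPM against 3.25 and 2.33 in wild type, and in the endoderm series 0.185 and 0.151 against 1.96 and 1.92 CPM. The genotypes did not overlap in either series. The log2 fold change was -2.48 ± 0.47 (adjusted p = 5.67e-04) in mesoderm, with 1 of 9 members and 5.72% of all genes called, and -3.47 ± 0.66 (adjusted p = 4.04e-04) in endoderm, with 1 of 9 members and 6.58% of all genes called. In mesoderm DESeq2 did not call Hoxb9 (adjusted p = 0.00142), and in endoderm it did (8.25e-04). Both edgeR calls were lost when any 1 of the 4 libraries was left out, with log2 fold changes of -2.70 to -2.23 and adjusted p of 0.00168 to 0.0159 in mesoderm and of -3.60 to -3.33 and 0.00268 to 0.0117 in endoderm. The UD libraries of the Mtf2 null cells gave a log2 difference of -2.20 ± 0.55 for Hoxb9 (adjusted p = 0.00321), which missed the threshold; the UD libraries of the mesoderm series alone gave -2.31 (adjusted p = 0.0456) and those of the endoderm series alone -2.06 (0.0834). In those UD cells edgeR called 0 of 2 members against 14.7% of all genes, 1 of the 2 had an unadjusted p under 0.05, and DESeq2 called 0. Hoxc13 in UD cells gave 0.19 on the log2 scale, and at 24 h in mesoderm it stood at 3.42 and 5.35 CPM in the Mtf2 null against 9.67 and 9.34 in wild type (-1.11, adjusted p = 0.00284, not called). Hoxc12, its neighbour at the 5′ end, had 1 count in the 2 Mtf2 null mesoderm libraries at 24 h against 23 in wild type, a ratio of 0.05 with a counting interval that reached 0.3.

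The opposite was seen in Mtf2 null cells at 48 h of the endoderm series, where Hoxa10 and Hoxa11, 5′ genes of cluster a that pattern the uterus and the forearm, were raised. Hoxa10 was at 0.087 and 0 CPM in wild type and at 2.47 and 1.96 CPM in the Mtf2 null. Hoxa11 was at 0 in both wild type libraries and at 1.05 and 1.26 CPM in the Mtf2 null. Both genes thus separated the genotypes without overlap. With 1 wild type count against 61, the count ratio for Hoxa10 was 48.8 (95% counting interval 8.44 to 1960), and its fitted log2 fold change was 5.34 ± 0.99 (adjusted p = 2.20e-04). Hoxa11 was at least 8.54-fold higher, taking 3 counts over the group as the floor of the wild type (adjusted p = 3.84e-04). Both genes passed the filter on low counts only through these Mtf2 null libraries, since no library of another group in the series was above 0.661 CPM for Hoxa10 or 0.514 for Hoxa11. The calls of both genes, their adjusted p and their lack of overlap are therefore given without weight. So is the count of 2 of 9 members called, beside 10.5% of all genes. Leaving out 1 of the 4 libraries kept the Hoxa10 call only without Mtf2 null 48 h replicate 2 (adjusted p 9.70e-04 to 0.0076 over the 4 fits) and lost the Hoxa11 call each time (0.00217 to 0.00762). DESeq2 gave no adjusted p for either gene at its own filter. The same 2 genes stood in this order in mesoderm at 48 h, untested there for their low counts: Hoxa10 at 0.818 and 0.713 CPM in the Mtf2 null against 0.065 and 0.082, and Hoxa11 at 0.454 and 0.475 against 0 and 0. They also did so, at lower levels and untested, in the UD libraries of the endoderm series. There Hoxa10 was at 0.251 and 0.429 CPM against 0 and 0.094, and Hoxa11 at 0.418 and 0.514 against 0.095 and 0.

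Further members of the Mtf2 null endoderm series at 48 h had values above wild type that missed the threshold. Hoxd8, an anterior trunk gene of cluster d, was at 1.42 and 1.26 CPM against 0.087 and 0.377 (2.51 on the log2 scale, adjusted p = 0.0198). Hoxd9 was at 2.02 and 0.908 against 0.26 and 0.471 (1.98, adjusted p = 0.0252). Hoxa7 was at 2.1 and 1.75 against 0.346 and 0.659 CPM (1.92, adjusted p = 0.0416). For these 3 genes too the libraries of the genotypes did not overlap. Hoxd8 and Hoxd9 passed the filter on low counts only through these Mtf2 null libraries, so their lack of overlap carries no weight. Hoxc13 was at 5.91 and 5.66 against 1.91 and 2.07 CPM (1.54, adjusted p = 0.00125), and within the Mtf2 null cells it was called above UD at 48 h (2.13 ± 0.36, adjusted p = 9.17e-05; 1 of 9 members, 8.93% of all genes). Without Mtf2 null UD replicate 1 that adjusted p was 0.00502. The 38 members summed to 21.2 ± 3.5 CPM in Mtf2 null endoderm cells at 48 h, against 6.09 ± 0.21 in wild type. Summed lateral and cardiac mesoderm markers moved with it (213 ± 22 against 12.7 CPM), as did the definitive endoderm markers (66.1 ± 7.1 against 5.36), and their part in the result was not tested. At 5 h edgeR called 0 of 9 members in Mtf2 null cells in both series (7.56% and 7.61% of all genes) and at 48 h in mesoderm also 0 (6.82%); 1, 1 and 2 members had an unadjusted p under 0.05, and DESeq2 called 0 in each.

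Cells labelled Jarid2 null held the highest Hox level of the directed series, at 24 h in mesoderm. There the 38 members summed to 34.04 ± 8.32 CPM (39.9 and 28.2 in the 2 libraries) against 20.47 ± 1.08 in wild type. Hoxd13, the last gene of cluster d and needed for digits, was at 4.23 and 2.06 CPM against 0.814 and 0.729 in wild type. Hoxd8 was at 1.13 and 0.748 against 0.09 and 0.073 CPM. Both genes were without overlap, yet neither was called (2.03 and 3.39 on the log2 scale, adjusted p = 0.00564 and 0.0118). edgeR called 0 of 9 members against 1.97% of all genes, and DESeq2 called 0. The unadjusted edgeR p was under 0.05 for 4 of the 9, and for 6423 of 18361 genes tested. Hoxc4, Hoxc10, Hoxc12 and Hoxd8 passed the filter on low counts not without these libraries. The 4 of 9 and the lack of overlap of Hoxd8 are therefore given without weight. Within the labelled Jarid2 null cells the rise from UD to 24 h was called for 2 of 9 members beside 7.88% of all genes. Hoxa7, a gene of the thoracic region, went from 0.497 and 0.433 to 3.7 and 2.34 CPM (2.68 ± 0.56, adjusted p = 8.22e-04). Hoxc13 went from 2.74 and 2.34 to 10.5 and 9.26 CPM (1.96 ± 0.27, adjusted p = 1.11e-05), and no library of one time reached the other time for either gene. The Hoxa7 call held without 24 h replicate 2 only (adjusted p 9.71e-04 to 0.019 over the 4 fits) and was lost with the replicate number as a block (0.00121). In wild type mesoderm Hoxa7 went from 0.49 and 0.17 to 0.994 and 1.53 CPM (1.95, adjusted p = 0.0233, not called).

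In UD cells labelled Jarid2 null, Hoxc13 and Hoxb9 were above wild type by 1.08 and 1.14 on the log2 scale (adjusted p = 0.0133 and 0.0430). edgeR called 0 of these 2 members against 1.15% of all genes, both had an unadjusted p under 0.05, and DESeq2 called 0. At the remaining times it called 0 of 9 members in the labelled Jarid2 null cells against 0% (mesoderm 5 h), 0.169% (mesoderm 48 h), 0.0363% (endoderm 5 h), 0.0312% (endoderm 24 h) and 0.125% (endoderm 48 h) of all genes. The columns of the labelled Jarid2 null endoderm libraries of 48 h carry another time in the deposited table than in the labels, and the time of the labels was used. The members with an unadjusted p under 0.05 there were 0, 3, 1, 0 and 0, and DESeq2 called 0. In endoderm at 24 h the labelled Jarid2 null held 5.76 and 6.59 CPM of Hoxc13 against 7.34 and 6.13 in wild type, which overlapped.

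Whether the genotype difference changed between UD and 48 h was tested as an interaction, and edgeR called 0 of 9 members for either genotype in either series. The shares of all genes called were 2.71% and 0.0545% in mesoderm and 5.24% and 0.514% in endoderm (Mtf2 null and labelled Jarid2 null), with 0, 3, 1 and 1 members at an unadjusted p under 0.05 and 0 called by DESeq2. The smallest adjusted p was that of Hoxc13 in labelled Jarid2 null mesoderm cells (-1.73 on the log2 scale, adjusted p = 0.0443). The rise to 48 h was not called as different between mesoderm and endoderm for any of 13 members in cells of wild type, Mtf2 null or labelled Jarid2 null genotype (1.35%, 0.617% and 1.97% of all genes). There 2, 0 and 1 members had an unadjusted p under 0.05 and DESeq2 called 0. The early calls also had counterparts without one: at 24 h against UD edgeR called 0 of 9 members in Mtf2 null cells of the mesoderm (4.1% of all genes) and endoderm series (3.24%) and 0 of 9 in labelled Jarid2 null endoderm cells (4.25%), with 3, 1 and 1 members at an unadjusted p under 0.05 and 0 called by DESeq2. At 48 h against UD it called 0 of 9 in Mtf2 null (6.28%) and labelled Jarid2 null mesoderm cells (8.5%) and in labelled Jarid2 null endoderm cells (8.5%), with 3, 2 and 1 such members and 0 called by DESeq2.

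Genes that act upstream of or beside the Hox proteins were read from 2 further lists. Of 23 regulators of Hox transcription, 19 were tested in mesoderm, and at 24 h of wild type differentiation 4 rose (Bmi1, Cdx1, Cdx2 and T) and 2 fell (Rarg and Stra8). Of all genes 6.96% were called there. In the wild type endoderm series 21 were tested, 5 rose at 24 h (Bmi1, Cdx1, Cdx2, T and Wnt8a) and Stra8 fell, beside 5.31% of all genes called. CDX factors are direct activators of Hox genes and Bmi1 is a subunit of the other Polycomb complex, PRC1, so the list holds activators and repressors alike. Among the TALE cofactors, homeodomain partners that bind DNA with Hox proteins, Meis1 and Meis2 rose in wild type mesoderm at 24 h and at 48 h, and Pbx3 fell at 48 h. In Mtf2 null endoderm cells at 48 h the retinoic acid degrading enzyme gene Cyp26a1 and the PRC1 gene Cbx8 were above wild type, as was Meis3. That comparison called 10.5% of all genes. In labelled Jarid2 null mesoderm cells at 24 h, where the Hox sum was highest, 1 of 19 regulators was called and it was lower (Cdx2), beside 1.97% of all genes.

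In bulk embryoid bodies Hox genes reached higher levels, and the 3 labelled null lines differed from their wild type line in size and in time. The 38 members summed to 9.1, 4.2, 6.1 and 5.4 CPM in Pcl1-3 wt on days 0, 2, 4 and 7, and to 10.1, 31.5, 65.8 and 157.8 CPM in the line labelled Mtf2 null. JM8 had 2.3, 2.58, 6.21 and 111 CPM and the line labelled Jarid2 null 46.2, 6.85, 31.8 and 149 CPM. J1 had 6.52, 3.07, 27.7 and 115 CPM and the line labelled Eed null 101, 101, 113 and 193 CPM. The wild type lines thus differed among themselves on day 7, when JM8 and J1 had raised their Hox genes and Pcl1-3 wt had not. On that day Pcl1-3 wt still had pluripotency markers at 1701 CPM summed and lateral and cardiac mesoderm markers at 46.9, against 203 and 1184 CPM in J1, 884 and 329 in JM8 and 782 and 375 in the line labelled Mtf2 null. The part of this difference between lines in the Hox result was not tested. Each line and day gave 1 value, and limma was fitted on log2 CPM with a prior count of 2 and with the day as a block. The spread in the test is thus that between the days of a line, beyond the change by day that the lines share. A filter on low values left 32 members, without Hoxa2, Hoxa6, Hoxb1, Hoxc12, Hoxd3 and Hoxd12, and an adjusted p under 0.05 made a call. This filter asked for 1 CPM in 4 samples, which the 4 days of 1 labelled null line could meet alone. Hoxa4 and Hoxa5 passed it in only 2 of the 4 fits with a day left out. Which members passed only through the line where they were high was not tested, so the counts of calls below carry that limit.

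The line labelled Eed null had 21 of 32 members called above J1 and 0 below, beside 11.5% of all genes, with a median log2 fold change of 2.17 over the 32 members and -0.01 over all genes. Hoxd13 was at 7.74, 9.01, 12.4 and 18.7 CPM on days 0, 2, 4 and 7 and at 0.17, 0.56, 0.82 and 0.73 in J1 (3.68 ± 0.58, adjusted p = 9.09e-04). Hoxa9, a gene of blood stem cells and the trunk, was at 6.11, 4.54, 7.38 and 8.05 CPM against 0, 0, 0 and 3.61 (3.30 ± 0.73, adjusted p = 0.00714). In both genes every day of the labelled Eed null stood above every day of J1. Hoxa10 was at 4.28, 12.3, 4.83 and 10.9 CPM against 0, 0.12, 0.09 and 6.02 (3.14 ± 0.71, adjusted p = 0.00833), so that J1 on day 7 overlapped with the earlier days of the null. Hoxb9 was at 5.50, 3.36, 4.72 and 11.2 against 1.72, 0, 0.21 and 0.81 CPM (2.78 ± 0.46, adjusted p = 0.00121), without overlap. Hoxb13, a gene of the prostate and tail, was at 5.90, 2.44, 1.14 and 2.88 against 0.17, 0, 0.12 and 0 CPM (2.76 ± 0.46, adjusted p = 0.0012), and it too was without overlap. In cluster c Hoxc10 was at 6.92, 4.2, 2.92 and 4.31 against 0, 0, 0 and 6.05 CPM (2.63 ± 0.73, adjusted p = 0.0269) and Hoxc4, the first gene of that cluster, at 4.68, 5.11, 3.47 and 5.03 against 0.52, 0.20, 0.12 and 2.28 CPM (2.42 ± 0.58, adjusted p = 0.0124). For Hoxc10 the day 7 value of J1 was inside the range of the labelled null, and for Hoxc4 it was not. Hoxd8 was at 9.16, 3.87, 7.46 and 12.3 against 0.17, 0.32, 0.46 and 5.79 CPM (2.74 ± 0.79, adjusted p = 0.0302), again with J1 on day 7 inside the range.

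The other 13 members called in the labelled Eed null were Hoxa3, Hoxa4, Hoxa5, Hoxa7, Hoxa11, Hoxb7, Hoxc9, Hoxc11, Hoxc13, Hoxd4, Hoxd9, Hoxd10 and Hoxd11, with log2 fold changes between 1.47 for Hoxa5 and 2.70 for Hoxa11. With 1 day left out 5 of the 21 calls held in each of the 4 fits, those of Hoxa3, Hoxb9, Hoxb13, Hoxc13 and Hoxd13; the number of members called was 13, 7, 6 and 18 when days 0, 2, 4 and 7 were left out in turn, and 6 with no block for the day. The smallest differences were 0.02 for Hoxb2, 0.02 for Hoxb6 and -0.18 for Hoxb5, while Hoxb7 of the same cluster was called at 1.95. Hoxb2, a hindbrain gene, had its values in J1 on days 4 and 7 (7.77 and 9.88 CPM) at or above those of the labelled Eed null (2.20 and 6.54 CPM). Hoxb1, the hindbrain gene shown above by sequence, was too low for the test and was at 0.61, 0.26, 0.66 and 0.66 CPM in the labelled Eed null against 0.17, 0, 6.53 and 0.42 in J1. It was highest in the labelled Jarid2 null on day 4, at 9.95 CPM, when the summed primitive streak markers stood at 910 CPM there, 618 in J1, 111 in the labelled Eed null and 133 in JM8, where Hoxb1 was at 0.69 CPM on day 4 and 4.97 on day 7. The part of those markers was not tested.

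The line labelled Mtf2 null had 14 of 32 members called above Pcl1-3 wt and 0 below, beside 18.7% of all genes, with a median of 1.60 over the members and 0.03 over all genes. For 7 of the 32 members Pcl1-3 wt held no read on any day, and with those at their bound the median was 1.64. Hoxa10 was at 0, 3.13, 4.77 and 11.5 CPM on days 0, 2, 4 and 7 and had no read in Pcl1-3 wt, which put it at least 53.3-fold higher over the 4 days (floor of 3 reads over the group; adjusted p = 0.00674). Hoxa11 was at 0.14, 3.11, 1.27 and 4.36 CPM, likewise without a read in Pcl1-3 wt and at least 27.1-fold higher (adjusted p = 0.0122). Both genes were at or near 0 also in the day 0 library labelled Mtf2 null, in which Mtf2 was above its level in the library labelled Jarid2 null. Hoxd13 was at 0.39, 4.89, 6.80 and 13.4 CPM against 0.46, 0.99, 0.32 and 0.37 (2.32 ± 0.58, adjusted p = 0.00877). Hoxd9 was at 0.24, 1.10, 4.33 and 9.77 CPM against 0.20, 0, 0.16 and 0.19 (2.31 ± 0.68, adjusted p = 0.023). Hoxb9 was at 2.83, 2.01, 3.43 and 8.27 against 1.77, 0.23, 0.96 and 1.14 CPM (1.61 ± 0.46, adjusted p = 0.0194) and Hoxc11 at 0.27, 0.39, 0.87 and 3.44 against 0.14, 0, 0 and 0 CPM (1.58 ± 0.53, adjusted p = 0.0412), and they were the only calls of clusters b and c. The other 8 called were Hoxa3, Hoxa4, Hoxa7, Hoxa9, Hoxa13, Hoxd4, Hoxd10 and Hoxd11. The count rested on single days: it was 22, 5, 1 and 0 when days 0, 2, 4 and 7 were left out in turn, and 0 with no block for the day.

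The line labelled Jarid2 null had 1 of 32 members called above JM8, beside 15% of all genes, with a median of 0.74 over the members and 0.01 over all genes. This was Hoxc13, at 3.6, 2.02, 0.92 and 2.32 CPM against 0.22, 0.08, 0.13 and 0.64 (1.94 ± 0.44, adjusted p = 0.00525; 0.0655 without day 2). Every day of the labelled null lay above every day of JM8. The number called was 2 with edgeR on the whole reads recovered from the table.

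Day by day, a member was counted when its log2 ratio to the wild type line, on the same log2 scale, was above 2. Repeat columns of a sample had been averaged before, so no spread between them is behind this count. The labelled Mtf2 null had 0, 3, 17 and 31 such members on days 0, 2, 4 and 7, beside 2.45%, 3.49%, 4.96% and 6.96% of all genes. The labelled Jarid2 null had 12, 2, 3 and 1 members beside 3.79%, 3.55%, 3.88% and 3.82% of all genes, and the labelled Eed null 19, 22, 20 and 8 beside 4.01%, 1.61%, 4.16% and 4.67%. Lower members past a ratio of -2 were 1 in the labelled Jarid2 null on day 7 and 1 in the labelled Eed null on day 4, and 0 elsewhere. In either direction the shares of all genes were 6.06%, 4.02%, 5.76% and 8.81% (labelled Mtf2 null), 4.18%, 6.39%, 5.96% and 5.44% (labelled Jarid2 null) and 6.4%, 3.12%, 5.73% and 7.44% (labelled Eed null). The 12 members of day 0 came from the library labelled Jarid2 null with Mtf2 at 129 CPM, which also had lateral and cardiac mesoderm markers at 95.9 against 7.85 CPM in JM8 and trophoblast markers at 467 against 190; on day 2 that label had 415, 52.3 and 52.5 CPM. Their part in the count was not tested. In the labelled Mtf2 null the members past this ratio were thus most on day 7, and in the labelled Eed null they were fewest on day 7. On that day J1 had raised its own Hox genes and Pcl1-3 wt had not. The labelled Eed null had lateral and cardiac mesoderm markers at 189 CPM summed on day 0.

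**Figure D2:**
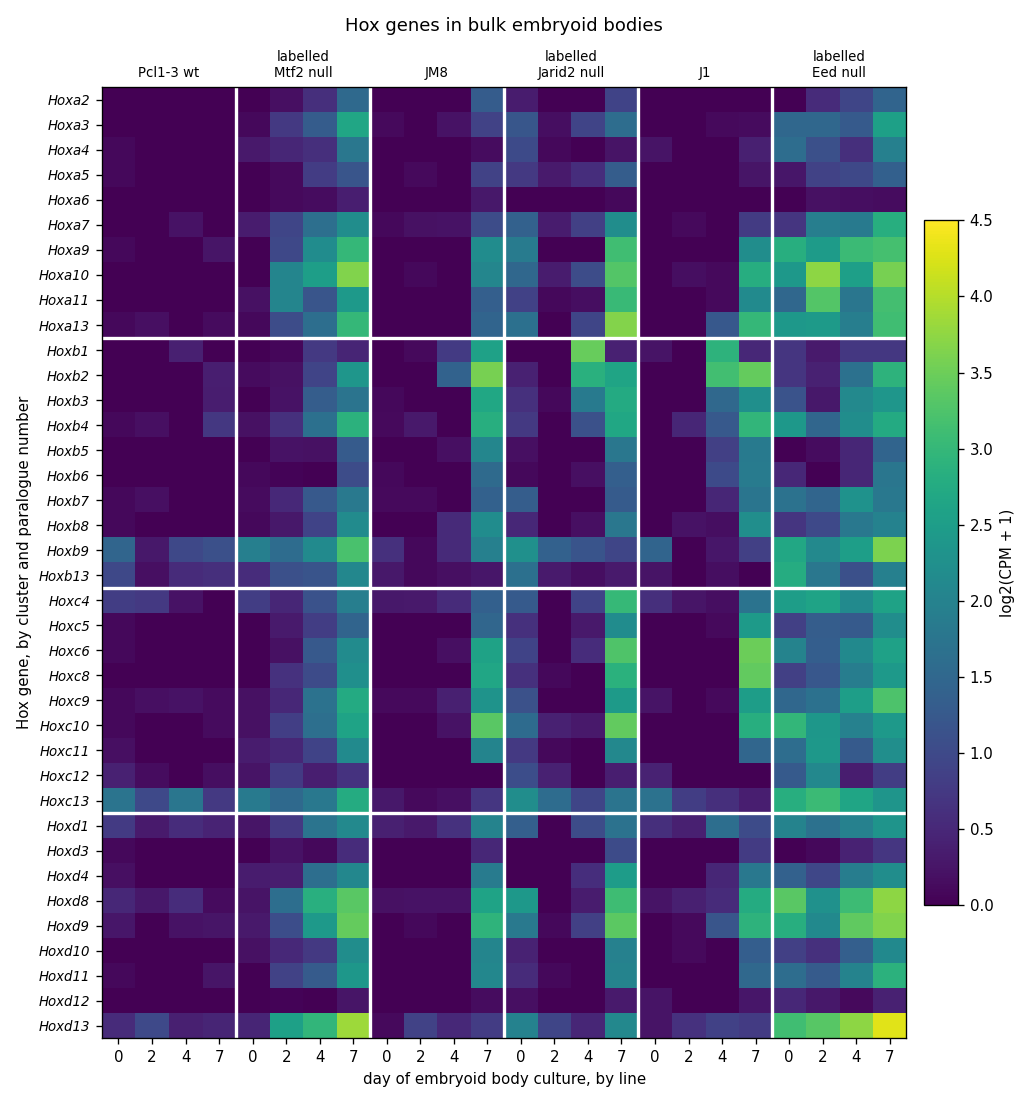
Log2(CPM + 1) of the 38 Hox genes, as colour from dark (0) to bright, (vertical axis, ordered by cluster and paralogue) in the 6 embryoid body lines over days 0, 2, 4 and 7 (horizontal axis), with 1 value for each line and day. The line labelled Eed null was bright in many genes from day 0, the line labelled Mtf2 null from day 4, JM8 and J1 on day 7, and Pcl1-3 wt stayed dark, with a summed level of 4.2 to 9.1 CPM.

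The members called are given here by cluster and position, beside 18.7% (labelled Mtf2 null) and 11.5% (labelled Eed null) of all genes. In the labelled Mtf2 null 7 of 8 tested members of cluster a and 5 of 7 of cluster d were called, against 1 of 9 in cluster b and 1 of 8 in cluster c. In the labelled Eed null the counts were 7 of 8 in cluster a, 3 of 9 in b, 5 of 8 in c and 6 of 7 in d. With all days, clusters a and d thus led in both comparisons and cluster b came last or level with the last. Without day 0 the labelled Eed null had 6 of 7, 2 of 9, 3 of 8 and 2 of 7 called in clusters a, b, c and d. The labelled Mtf2 null then had 7 of 7, 5 of 9, 3 of 8 and 7 of 7. Cluster d therefore did not lead without day 0 in the labelled Eed null, and cluster b was not last in the labelled Mtf2 null. By position, the labelled Eed null had 1 of 4 tested members of paralogues 1 to 3 called (median log2 fold change 1.19), 7 of 14 of paralogues 4 to 8 (1.60) and 13 of 14 of paralogues 9 to 13 (2.63). The labelled Mtf2 null had 1 of 4, 3 of 14 and 10 of 14, with medians of 1.25, 1.43 and 1.85. Without day 0 the counts by position were 1 of 4, 2 of 13 and 10 of 14 in the labelled Eed null and 2 of 4, 7 of 13 and 13 of 14 in the labelled Mtf2 null, beside 9.54% and 21.8% of all genes called in those fits; the line labelled Jarid2 null had 1 of 31 (18.7%). Without days 2, 4 and 7 in turn the labelled Mtf2 null had 3 of 14, 0 of 14 and 0 of 12 of paralogues 9 to 13 called and the labelled Eed null 5 of 14, 4 of 14 and 12 of 12. Of the 14 calls in the labelled Mtf2 null, 0 held in every one of these fits, so its order of clusters and positions rests on single days. The 2 comparisons share no control line, although all 24 samples share the estimate of the spread. Of the members called, 13 were called in both, which is 61.9% of the labelled Eed null calls and 92.9% of the labelled Mtf2 null calls. The labelled Eed null calls alone were 65.6% of the 32 members tested. Over all genes 271 were called higher in both, 29.1% and 17.4% of the genes called higher in each. The filter removed 3 of the 7 members of paralogues 1 to 3, so the 3′ end is less well covered.

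Of the further lists, Meis1 and Meis2 were called higher in the lines labelled Eed null and Mtf2 null, and Meis2 and Pbx2 in the line labelled Jarid2 null. Bmi1 was higher and Pcgf2 lower in all 3 labelled null lines, and both encode subunits of PRC1. The 3 targeted genes were called in none of the 3 comparisons by limma.

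In single cells the 34 members with an entry gave 5859 UMIs in all, and Eed null cells held them from the undifferentiated state on. Wild type cells had 8.70 CPM of Hox UMIs on day 0 (95% Poisson interval 5.68 to 12.7, from 26 UMIs), 19.1 on day 4, 170 (153 to 189) on day 7 and 202 (180 to 227) on day 10. Eed null cells had 227 (212 to 244, from 772 UMIs), 218, 540 (511 to 571) and 905 (855 to 958) CPM on the same days. Their level on day 0 was thus above that of wild type cells on day 10. Mtf2 null cells had 9.00, 6.95, 96.0 (84.0 to 109) and 115 (101 to 131) CPM, below wild type on days 4, 7 and 10. Bulk embryoid bodies differed from this: 14 members of the labelled Mtf2 null were called above Pcl1-3 wt, which is another wild type line. The reason for the difference was not tested. Jarid2 null cells had 14.0, 23.4, 70.8 (59.4 to 83.8) and 360 (332 to 389), below wild type on day 7 and above on day 10. With 1 library for each genotype and day these are values of the libraries, without a test of the genotypes, and the intervals cover counting error only.

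The share of cells with at least 1 Hox UMI was 72.9% in Eed null cells on day 0 and 5.88% in wild type cells on the same day, at median depths of 9375 and 8447 UMIs per cell. In cell cluster 3 of the deposited annotation, mostly undifferentiated wild type cells, it was 5.37%. The shares on days 4, 7 and 10 were 8.16%, 30.7% and 42.99% in wild type, 5.14%, 23.0% and 26.5% in Mtf2 null, 13.4%, 16.2% and 45.1% in Jarid2 null and 63.8%, 73.7% and 89.6% in Eed null cells. With each cell thinned to 2500 UMIs the day 0 shares were 39.0% in Eed null and 2.77% in wild type cells, and the day 10 shares 81.8% and 29.8%.

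Cluster and position differed between the genotypes in single cells also. In Eed null cells on day 0 paralogues 9 to 13 made up 69.9% of the Hox UMIs (159 CPM) and paralogues 1 to 3 5.6%. The leading genes were Hoxa10 (147 UMIs), Hoxd13 (111), Hoxc10 (64), Hoxc13 (54) and Hoxb7 (38), while Hoxb1 and Hoxb8 had 1 UMI each and Hoxb5 and Hoxb6 had 0, which allows up to 3 UMIs in this library. By cluster the shares were 35.8% for a, 12.4% for b, 29.7% for c and 22.2% for d, so cluster b was the smallest. On day 10 paralogues 9 to 13 still made up 59.2% in Eed null cells (536 CPM). In wild type cells on day 10 paralogues 4 to 8 were the largest group (52.3%), with 28.6% from paralogues 9 to 13. Mtf2 null cells had most of their Hox UMIs from paralogues 1 to 3 on day 7 (51.5%), and cluster b gave 52.4% of them on day 7 and 57.4% on day 10. Jarid2 null cells had 52.6% from cluster b on day 7 and 40.7% on day 10, with 39.6% from paralogues 4 to 8 and 35.3% from paralogues 1 to 3. The 5′ genes in Mtf2 null cells stood at 22.0 and 24.5 CPM on days 7 and 10, against 76.7 and 57.9 in wild type cells.

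**Figure D3:**
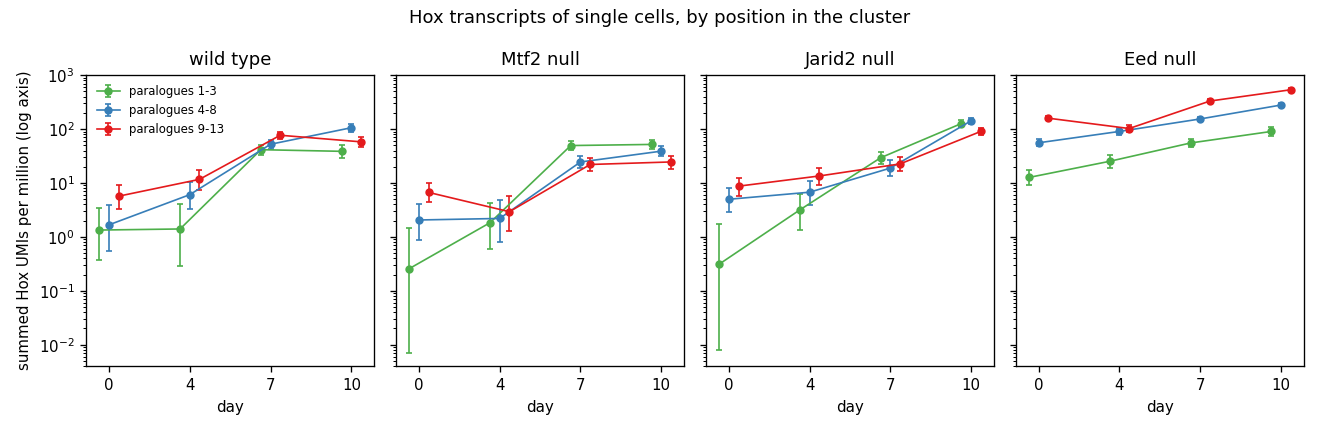
CPM of Hox UMIs (vertical axis, log scale) in paralogues 1 to 3, 4 to 8 and 9 to 13 for each single-cell library, by genotype and day (horizontal axis), with bars for 95% Poisson intervals. The 5′ group led in Eed null cells from day 0 (159 CPM) to day 10 (536 CPM), and the 3′ group was the highest of the 3 groups within Mtf2 null cells on days 7 and 10 (49.4 and 51.9 CPM).

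The deposited cell clusters place these levels in cells. They were made from the same transcriptomes, so differences between clusters are a description. Cell cluster 4 had the highest level of the lateral and cardiac mesoderm markers among the 22 cell clusters (1835 CPM) and held 122 wild type, 159 Mtf2 null and 40 Jarid2 null cells at median depths of 5988, 6321 and 6464 UMIs. The Hox level in it was 619 (564 to 679) CPM in wild type, 294 (263 to 328) in Mtf2 null and 710 (617 to 813) in Jarid2 null cells. Paralogues 1 to 3 made up 13.7% (95% exact binomial interval 10.7 to 17.1) of the Hox UMIs in wild type, 50.8% (45.2 to 56.2) in Mtf2 null and 33.2% (26.8 to 40) in Jarid2 null cells of this cluster. The intervals did not overlap between any of the 3, and cells share a library, so they do not stand for a spread between cultures. Hoxb2 had 28, 99 and 35 UMIs (37.6, 87.5 and 119 CPM) in the cells of wild type, of Mtf2 null and of Jarid2 null genotype. Hoxa9 had 43, 4 and 5 UMIs (57.8, 3.53 and 17.1 CPM) and Hoxa10 38, 9 and 10 (51.1, 7.95 and 34.1 CPM). Hoxc6, a thoracic gene, had 56, 21 and 12 UMIs (75.2, 18.6 and 40.96 CPM). Hoxd13 had 17, 1 and 2 UMIs (22.8, 0.88 and 6.83 CPM). The Mtf2 null cells of cell cluster 4 thus held more of the hindbrain gene Hoxb2 and less of Hoxa9, Hoxa10, Hoxc6 and Hoxd13 than the wild type cells. Day mattered within wild type: its 32 cells of day 7 had 1006 and its 90 cells of day 10 had 452 CPM of Hox UMIs, against 297 and 291 in the Mtf2 null cells of those days. On day 10 the 33 Jarid2 null cells had 803 (694 to 923) CPM, above the wild type cells of that day (396 to 514) by intervals that did not overlap. The level in wild type was above that in Mtf2 null cells on both days.

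**Figure D4:**
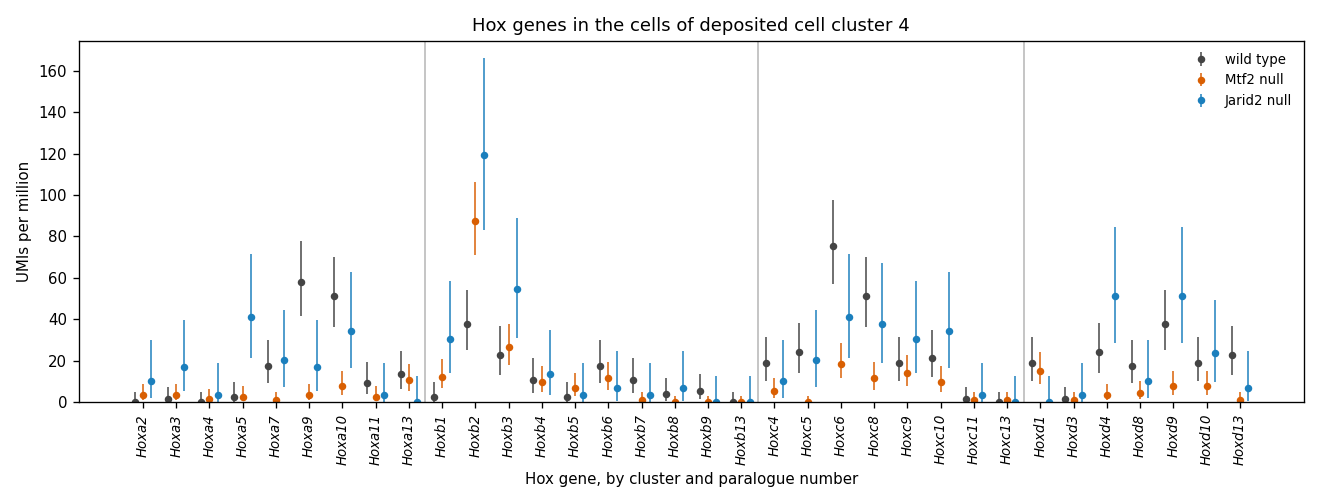
CPM (vertical axis) of the Hox genes with an entry (horizontal axis, by cluster and paralogue) in cell cluster 4, for cells of the 3 genotypes found there, with bars for 95% Poisson intervals. Hoxb2 was highest in the Mtf2 null and Jarid2 null cells (87.5 and 119 CPM), and Hoxa9, Hoxa10 and Hoxc6 were highest in wild type cells (57.8, 51.1 and 75.2 CPM).

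In cell cluster 14, whose primitive streak markers stood at 1984 CPM, paralogues 1 to 3 made up 72.5% (60.4 to 82.5) of the Hox UMIs in wild type, 81.0% (58.1 to 94.6) in Mtf2 null and 80.4% (66.1 to 90.6) in Jarid2 null cells, which overlapped. Hoxb1 gave 28, 4 and 16 UMIs there. The Hox level was 92.4 (71.9 to 117) in wild type, 36.8 (22.8 to 56.3) in Mtf2 null and 304 (223 to 406) CPM in Jarid2 null cells. In cell cluster 15, with anterior neural markers at 1333 CPM, it was 56.7 (37.7 to 81.9) in Mtf2 null and 322 (256 to 399) in Jarid2 null cells, with 64.3% and 68.3% from paralogues 1 to 3. Eed null cells were mostly in other clusters. Cell cluster 6 held 303 Eed null cells with pluripotency markers at 2403 CPM and a Hox level of 228, against 7.82 in cell cluster 3, whose pluripotency markers stood at 1748. In cell cluster 13, with lateral and cardiac mesoderm markers at 1498 CPM, 197 Eed null cells had a Hox level of 951 (900 to 1005), 59.8% (57 to 62.5) of it from paralogues 9 to 13, and 25 Jarid2 null cells had 1640 (1402 to 1908), 26.8% (20.3 to 34.2) of it from paralogues 9 to 13.

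Hox genes of different clusters were found in the same cells. Of 1181 Eed null cells 553 had UMIs of at least 2 Hox genes, and in 480 of these (86.8%) the genes came from at least 2 of the 4 clusters. The same was true of 60 of 79 wild type cells (75.9%), 35 of 59 Mtf2 null cells (59.3%) and 73 of 102 Jarid2 null cells (71.6%). The Eed null cells also had the most Hox UMIs, so these shares are not compared as rates. The highest number of Hox genes in 1 cell was 17 in Eed null, 14 in wild type, 12 in Jarid2 null and 11 in Mtf2 null cells.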

How the data were processed

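RNA was measured in 48 directed libraries, 24 embryoid body samples and 16 single-cell libraries, grouped by the deposited labels. For bulk RNA the authors aligned reads with Bowtie2 to GRCm38/mm10 and quantified them with Salmon. The directed tables as deposited hold estimated counts (9111880 to 16898264 per library), which were rounded. The embryoid body table as deposited holds a signal, read counts that the authors divided by size factors. Whole reads were recovered in 46 of 46 columns (tolerance 0.02, 100% of values, 3005707 to 22944105 reads). Repeat columns of a sample, which most headers number as replicates, were averaged on the deposited scale. Their recovered reads were summed for floors and for a count test. For single cells the deposited UMI counts came from HTSeq, and the authors dropped cells with few genes and clustered the rest; doublets were not called here. No column of the tables lacked a sample (0 unused). Per-library files were not used.

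Directed counts were tested with edgeR 4.0.16 (quasi-likelihood, TMM, filterByExpr with a minimum count of 10; Benjamini-Hochberg adjusted p under 0.001 and log2 fold change over 1 in size) in 33 comparisons, 6 of which (24 h against UD) were added after levels had been seen. Embryoid bodies were tested with limma 3.58.1 on log2 CPM (TMM, prior count of 2, which understates changes of low genes) with the day as a block, keeping genes with at least 1 CPM in 4 samples. Single cells had 1 library per genotype and day and no test; intervals are 95% Poisson or exact binomial and cover counting error only, as do floors (3 counts). Alternatives were RLE factors, no filter, DESeq2 1.42.0 (R 4.3.3), the replicate number as a block, each library or day left out with the dispersion trend of all libraries, other prior counts, no TMM, no day block, edgeR on the recovered reads and cells thinned to 2500 UMIs. Same-numbered directed libraries did not deviate together (r from -0.19 to 0.27 over 66 pairs of groups in each series, above 0.1 in 7 and 5), so numbers were not taken to pair them. No 2 libraries of a group were alike within sampling noise. Undifferentiated libraries with the same number in the 2 directed series differed less (chi-square per gene 5.15 to 19.1) than those with other numbers (7.49 to 22.0) in each genotype, and whether they share a culture is not given in the sources used here, so p-values of the UD comparison, which pools both series, may be too small. The authors' reporting summary calls the bulk and directed duplicates technical, so p-values of the directed series measure that spread. Those of the embryoid bodies measure the spread between days, since repeat columns were averaged before the fit. Scripts were tested on simulated data.

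Members and gene lists were chosen with earlier results of these data known, and 1 gene of cluster a and some genes of the regulator and cofactor lists are not reported here. Genes named with values in every library were, for each cluster, the 2 called members with the largest change in a comparison and the member with the highest mean level; further members with large differences that missed the threshold, and those of cell cluster 4, were named after their values were seen. Gene positions are those of GENCODE M21, and promoter windows those of RefSeq on GRCm38.p6.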

Additional observations from a re-analysis of the deposited data

How the results depend on the processing

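Hox counts in the directed series were so low that most members could not be tested, and with 2 libraries for each group most calls rested on all of them. No log2 fold change of a named member changed direction under any alternative (1012 kept their side of the threshold, 141 lost it and 30 gained it), and 294 counts of called members stayed within 1.5 times while 40 did not. Without the filter on low counts 1 member in place of 0 was called in UD Mtf2 null cells, in labelled Jarid2 null mesoderm cells at 24 h and in Mtf2 null endoderm cells at 24 h against UD. DESeq2 called 0 in place of 1 in Mtf2 null mesoderm cells at 24 h, 1 in place of 2 in labelled Jarid2 null mesoderm cells at 24 h against UD, and 0 in place of 2 in Mtf2 null endoderm cells at 48 h, where it gave no adjusted p for Hoxa10 and Hoxa11. The cause of the other changes was not tested. With the replicate number as a block, 1 in place of 2 members was called in labelled Jarid2 null mesoderm cells at 24 h against UD, and no other count of directed calls moved by over 1.5 times; the numbers were not taken to pair the libraries. Leaving out single libraries gave 0 to 0 members for Mtf2 null against wild type at 24 h in mesoderm and in endoderm, 0 to 1 for Mtf2 null endoderm cells at 48 h, 0 to 1 for wild type mesoderm at 48 h, wild type endoderm at 24 h and Mtf2 null endoderm at 48 h, each against UD, and 1 to 2 for labelled Jarid2 null mesoderm at 24 h against UD. In embryoid bodies, leaving out single days gave 0 to 22 members for the label Mtf2 null, 0 to 2 for the label Jarid2 null and 6 to 18 for the label Eed null. With no block for the day 0 and 6 were called for the labels Mtf2 null and Eed null, and edgeR on the recovered reads called 2 for the label Jarid2 null, 20 for Mtf2 null and 17 for Eed null (2284, 2909 and 1440 of all genes). With a prior count of 0.5, 8 in place of 3 members passed a log2 ratio of 2 in either direction in the label Mtf2 null on day 2, and 5 in place of 2 in the label Jarid2 null on day 7. With cells thinned to 2500 UMIs, the percent of cells with a Hox UMI on days 0, 4, 7 and 10 was 2.77, 3.48, 19.72 and 29.84 in wild type, 1.78, 1.68, 13.09 and 16.43 in Mtf2 null, 2.93, 5.86, 10.47 and 34.53 in Jarid2 null and 39.01, 40.07, 56.23 and 81.82 in Eed null cells.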
